A study of Mus musculus with 16 samples.

Results

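Some genes are known to be transcribed when the ERK kinase is active, and many of them encode proteins that damp the same pathway, while others encode transcription factors that pass the signal on. The members described here are 10 such genes of the mouse, of 18193 genes that the arrays measured. They are the phosphatase genes Dusp6, Dusp4 and Dusp5, the Sprouty genes Spry2 and Spry4, the Sprouty-related genes Spred1 and Spred2, the Ets transcription factor genes Etv4 and Etv5, and Phlda1. Every probe set whose platform annotation names only 1 of these genes was taken, which gave 28 probe sets of 45037 measured in all samples. Of these, 20 passed a filter on low signal and were tested, for 9 of the 10 genes, among 27022 probe sets tested in all.

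RNA came from whole mouse blastocysts, the embryo stage with an outer trophectoderm, an inner cell mass and a cavity. The 12 samples formed 4 groups of 3: blastocysts treated with 20 µM U0126, with 25 µM SP600125 or with 20 µM SB203580, and blastocysts labelled WT for which no treatment is named, called control below. U0126 is used as an inhibitor of MEK, SP600125 of JNK and SB203580 of p38 kinases. Replicate 1 of each group was read on a 430A and a 430B Affymetrix array after the small sample labelling assay, and replicates 2 and 3 were read on 430 2.0 arrays after the two-cycle assay. The sources used here do not give the strain, the number of embryos per sample, the treatment time or whether controls received solvent. They also do not state that replicates came from separate cultures, and the p-values therefore refer to the spread among these samples, which may be technical.

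In the ERK cascade a fibroblast growth factor receptor activates RAS, RAF, MEK and then ERK. DUSP6 removes phosphate from ERK in the cytoplasm, and DUSP4 and DUSP5 do so in the nucleus. Sprouty proteins act between receptor and RAF, SPRED proteins hold RAS and RAF back, and ETV4 and ETV5 carry FGF signals to target genes. In the mouse blastocyst, FGF4 made by epiblast precursors acts through this cascade to favour primitive endoderm, the second lineage of the inner cell mass, and FGF signals also sustain trophectoderm.

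Dusp6 lies on chromosome 10, and the 250 bases before its annotated start are shown because this gene had the largest change of the 10 genes. Spred2, on chromosome 11, is shown beside it because it alone of the member promoters searched held 1 of 3 motifs searched. The RefSeq table of build GRCm38.p6 held promoters of 6 of the 10 genes, 7 starts in all. The motifs, searched on both strands, were CCGGAAG of Ets factors, TGANTCA of AP-1 and TGACGTC of CRE-binding factors, and capitals mark a match.
Dusp6, chr10:99262981-99263230, plus strand: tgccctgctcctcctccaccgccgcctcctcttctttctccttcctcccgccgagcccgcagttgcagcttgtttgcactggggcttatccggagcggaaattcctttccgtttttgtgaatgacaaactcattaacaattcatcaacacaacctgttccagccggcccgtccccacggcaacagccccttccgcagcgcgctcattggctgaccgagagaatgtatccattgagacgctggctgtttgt
Spred2, chr11:19924192-19924441, plus strand: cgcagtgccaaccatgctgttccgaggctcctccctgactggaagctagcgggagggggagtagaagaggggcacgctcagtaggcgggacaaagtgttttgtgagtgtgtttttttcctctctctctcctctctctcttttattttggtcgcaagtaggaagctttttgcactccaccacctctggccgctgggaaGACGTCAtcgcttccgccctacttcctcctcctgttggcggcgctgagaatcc
The Ets motif was in 0 of the 7 member windows and in 6.91 percent of all 32851 windows of this length. The AP-1 motif was likewise in 0 of 7, against 6.75 percent of all windows, and the CRE motif was in 1 of 7, against 2.78 percent. A match or its lack describes these letters only.

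Median signal on the 430 2.0 arrays was 77.7 and 83.0 with U0126, against 61.1 to 68.9 in the other 6 samples, although each array had been scaled to the same trimmed mean of 500. Actin signal at the 3' end over that at the 5' end, a ratio that is larger where RNA is degraded or labelled fragments are short, was 1.62 on the 430A array of U0126 replicate 1 and 2.47 to 3.66 on the other 430A arrays, against 1.58 to 1.75 on all 430 2.0 arrays. The same ratio for Gapdh was 2.61 on the 430A array of U0126 replicate 1 and 3.17 to 4.03 on the other 430A arrays. On all 430 2.0 arrays the Gapdh ratio was 2.84 to 4.80. Trophectoderm markers had a summed signal, mostly from Krt8 and Krt18, of 94001 to 113208 on the 430 2.0 arrays. Summed signals there were 155.2 to 319.2 for 4 of 6 cumulus and granulosa markers, 290.0 to 727.1 for 4 uterine and oviduct markers and 41.8 to 228.4 for 4 of 5 blood and immune markers, and none of these was at 0. On the arrays of replicate 1 these 3 sums were 1497.3 to 2143.5, mostly from Foxl2, 337.8 to 641.8 and 176.0 to 200.7. The trophectoderm sum there was 37083 to 44119.

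Among the phosphatase genes, Dusp6 and Dusp4 were lower in U0126-treated blastocysts than in control, by 4.77-fold and 4.35-fold. Dusp6, represented by probe set 1415834_at, had signals of 61.0, 267.2 and 209.3 in replicates 1, 2 and 3 with U0126, 316.3, 621.3 and 1343.4 with SP600125, 371.0, 572.5 and 864.6 with SB203580, and 523.6, 1006.6 and 897.5 in control. Every U0126 sample lay below every other sample of its array type. The log2 change with U0126 against control was -2.26 ± 0.29 (SE, n = 3 each, limma, adjusted p = 0.00146), and it ranked 9 of the 27022 probe sets by p. The SP600125 group overlapped the control group, because replicate 3 with SP600125 exceeded both controls on its array type, and its change was -0.27 ± 0.29 (adjusted p = 0.902, 95 percent interval -0.87 to 0.33). With SB203580 the change was -0.45 ± 0.29 (adjusted p = 0.696, interval -1.05 to 0.16), with all 3 samples below the controls of their array type.

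The difference between inhibitors was tested directly for Dusp6. Its level was lower with U0126 than with SB203580 by 3.51-fold (log2 difference -1.81 ± 0.29, adjusted p = 0.00367) and lower than with SP600125 by 3.96-fold (-1.98 ± 0.29, adjusted p = 0.00105). SB203580 and SP600125 did not differ past the threshold (-0.17 ± 0.29, interval -0.78 to 0.43). Mean Dusp6 signal on the 430 2.0 arrays was 238.2 with U0126, 718.5 with SB203580, 982.4 with SP600125 and 952.0 in control, and no test separated the last 3 of these groups.

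Dusp4, on chromosome 8 and represented by probe set 1428834_at, was lower than control with each inhibitor and passed with 2 of the 3. Its signals were 1720.7, 321.1 and 209.1 with U0126, 1918.0, 484.3 and 569.1 with SP600125, 3435.4, 764.7 and 1243.4 with SB203580, and 4538.9, 1665.1 and 1366.5 in control. Replicate 1 was read on the 430B array, so its level cannot be set against the other replicates. Within each array type the order was U0126, SP600125, SB203580, control, from low to high, with no overlap between neighbouring groups. DUSP4 acts on JNK and p38 as well as on ERK.

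For Dusp4 the log2 change against control was -2.12 ± 0.23 with U0126 (adjusted p = 0.000526, rank 4 of 27022) and -1.41 ± 0.23 with SP600125 (adjusted p = 0.00697), a 2.66-fold fall (95 percent interval -1.91 to -0.92). With SB203580 it was -0.55 ± 0.23 (adjusted p = 0.456, interval -1.04 to -0.05). U0126 against SB203580 passed (-1.57 ± 0.23, adjusted p = 0.00237). U0126 against SP600125, at -0.71 ± 0.23 (adjusted p = 0.121), and SB203580 against SP600125, at 0.86 ± 0.23 (adjusted p = 0.113), did not. The groups did not overlap in these comparisons. Of all tested probe sets, 11.4 percent lay wholly lower with U0126 than with SP600125. For SB203580, 13.5 percent lay wholly higher than with SP600125. The SP600125 call on Dusp4 was lost without control replicate 2 (-1.27, adjusted p = 0.0549).

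In whole embryos, fewer cells of a type and less RNA per cell cannot be told apart. Marker genes of the lineages also moved. The primitive endoderm sum given next was below control with every inhibitor. This included SB203580, with which Dusp6 (-0.45) and Dusp4 (-0.55) lay below the controls of their array type but did not pass. The summed signal of 11 primitive endoderm markers on the 430 2.0 arrays was 24862 and 31490 with U0126, 26612 and 25533 with SP600125, 28228 and 30652 with SB203580, and 35398 and 35754 in control. On the arrays of replicate 1 it was 16561, 16642, 17098 and 23663 in the same order of groups. The sum weighs bright markers most. On the 430 2.0 arrays Dab2 alone gave 13659 and 16511 with U0126 and 14735 and 14571 in control. With SP600125, 8 of the 11 markers fell and 0 rose, among them Col4a1 (-1.33 ± 0.16), Lama1 (-1.65 ± 0.21), Pdgfra (-1.14 ± 0.15) and Sox17 (-1.39 ± 0.21). With U0126 Amn (-1.53 ± 0.26) and Gata6 (-0.60 ± 0.12) fell, and with SB203580 Amn fell (-1.80 ± 0.26). By sign alone, 11 of the 11 were negative with U0126 (median -0.60), 10 with SP600125 (median -1.33) and 9 with SB203580 (median -0.52). The medians over all genes were 0.05, -0.002 and 0.01. Of 8 trophectoderm markers Elf5 fell with SP600125 (-1.14 ± 0.23). Of 7 inner cell mass and epiblast markers, Sox2 (0.87 ± 0.14) and Fgf4 rose with U0126, and 1 of the 7 was negative. The summed signal of all 7 on the 430 2.0 arrays was 18405 and 16698 with U0126 against 13526 and 14585 in control. Nanog had 1882.6 and 1046.6 with U0126 and 1763.5 and 2375.6 in control there. The part of these shifts in the Dusp4 and Dusp6 values was not tested.

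Both phosphatase calls for U0126 depended on how the variance was modelled. Without the intensity trend in limma the log2 changes were the same by construction, but the adjusted p was 0.125 for Dusp6 and 0.122 for Dusp4, and 2 of 27022 probe sets were called in all. The SP600125 change of Dusp4 then had an adjusted p of 0.16. Replicate 1 of Dusp6 with U0126 came from the array with the low actin ratio, and there its difference from control was -2.86, while replicates 2 and 3 gave -1.78 and -2.12. Dusp4 differed by -1.39, -2.19 and -2.78 in replicates 1, 2 and 3.

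Dusp5 was near the bottom of the signal range and was not tested. Its single probe set, 1437199_at, had signals of 5.9 and 6.9 with U0126, 12.5 and 7.6 with SP600125, 5.6 and 7.4 with SB203580, and 6.7 and 7.2 in control on the 430 2.0 arrays. On the 430B array it had 82.6, 52.8, 49.3 and 79.4 in the same order of groups, where the array medians were 223.8 to 230.9. Its mean was at the 3.46th percentile of all probe sets, so no fall was detectable at this signal.

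**Figure D1:**
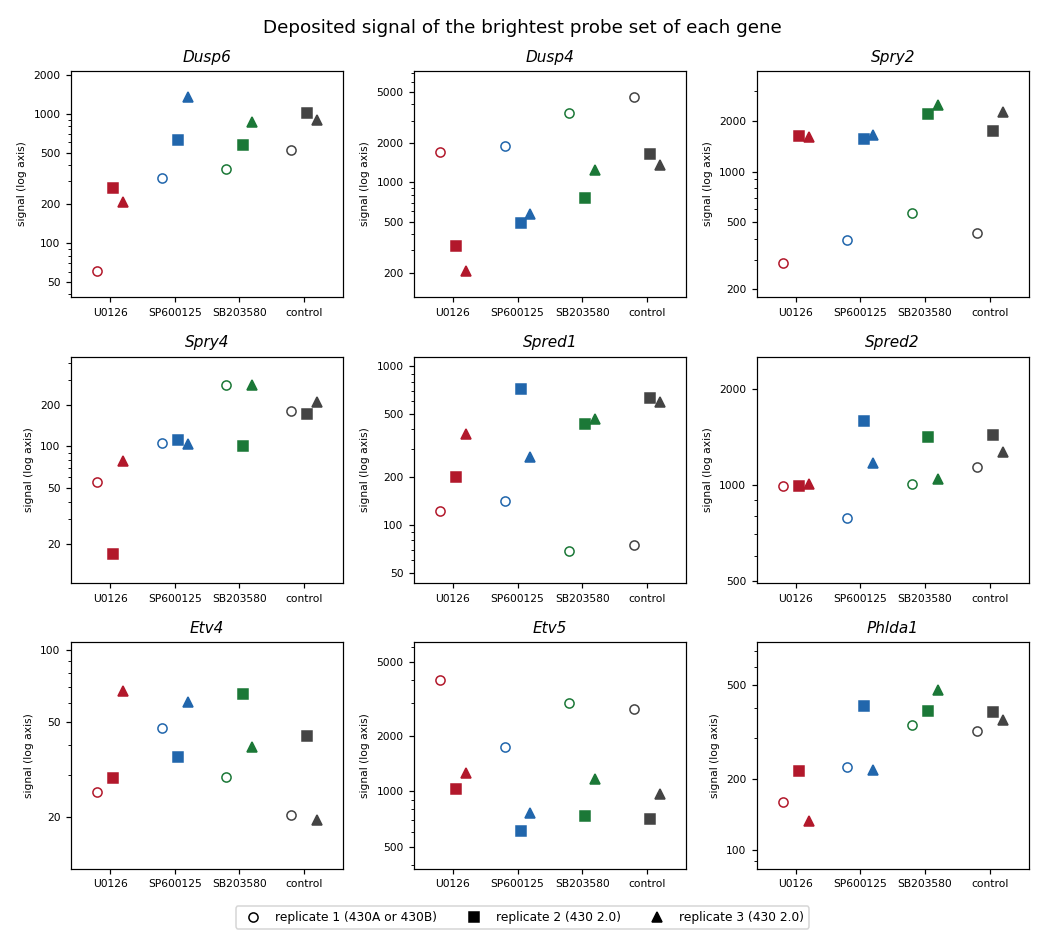
Deposited signal (log axis, arbitrary units of the array) of the brightest probe set of the 9 tested genes in all 12 samples, by group; open circles are replicate 1 on the 430A or 430B array, filled squares and triangles are replicates 2 and 3 on 430 2.0 arrays, and the 2 kinds of array differ in level. For Dusp6 the U0126 samples lie at 61.0, 267.2 and 209.3 and below all others of their array type, and for Dusp4 the groups follow each other without overlap.

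The Sprouty genes did not pass against control with any inhibitor, and Spry4 came nearest. Its brightest probe set, 1445669_at, had signals of 55.3, 16.8 and 79.1 with U0126, 105.3, 110.7 and 104.0 with SP600125, 276.0, 101.4 and 274.3 with SB203580, and 179.2, 170.7 and 208.0 in control. The U0126 samples were the lowest of their array type in each case, and the SP600125 samples lay between U0126 and control. The change with U0126 against control was -1.80 ± 0.44 (adjusted p = 0.0917) and that with SP600125 was -0.73 ± 0.44 (adjusted p = 0.728). When arrays were centred on their medians, the U0126 change was -1.99 with an adjusted p of 0.0399.

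This Spry4 probe set was 3.72-fold lower with U0126 than with SB203580 (-1.90 ± 0.44, adjusted p = 0.0433). The call was lost in 8 of 16 settings and omissions, while the direction was kept in all 16. The second Spry4 probe set, 1440867_at, had 518.0, 19.1 and 81.6 with U0126, against 871.4, 91.7 and 80.6 in control (-0.81 ± 0.41). The third, 1422021_at, had 26.2, 93.7 and 12.5 with U0126, against 117.8, 31.3 and 93.4 in control (-0.85 ± 0.56). Both overlapped control and neither passed. All 3 tested Spry4 probe sets were negative with U0126, and all 3 were negative with SP600125 (-0.73 to -0.35). With SB203580 all 3 were positive (0.09 to 0.40), none past the test. The fourth, 1422020_at, had a mean signal of 10.4 and was not tested.

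Spry2 gave 1 bright and 1 dim probe set. The bright one, 1436584_at, had signals of 287.7, 1632.8 and 1606.0 with U0126, 392.7, 1555.8 and 1662.2 with SP600125, 569.1, 2199.8 and 2486.4 with SB203580, and 431.8, 1738.2 and 2256.7 in control. With U0126 and with SP600125 all samples lay below the controls of their array type, but the differences were small, at -0.38 ± 0.16 (adjusted p = 0.333, interval -0.71 to -0.05) and -0.24 ± 0.16 (adjusted p = 0.755). With SB203580 the change was 0.29 ± 0.16 (adjusted p = 0.607).

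U0126 against SB203580 was the 1 comparison in which Spry2 passed, with a difference of -0.67 ± 0.16 (1.59-fold, adjusted p = 0.0414). That call was lost in 9 of 16 settings and omissions, with the same direction in all. The dim probe set, 1421656_at, with signals from 42.0 to 77.3 over all samples, had the opposite sign in this comparison (0.48 ± 0.42, adjusted p = 0.666).

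No Spred probe set passed in any of the 6 comparisons. The brightest for Spred1, 1423160_at, had signals of 122.0, 200 and 372.7 with U0126, 141.5, 719.6 and 270.1 with SP600125, 69.0, 435.1 and 466.2 with SB203580, and 74.6, 630.6 and 596.2 in control. Replicate 1 with U0126 was above its control and the other 2 were below, and the change was -0.54 ± 0.39 (adjusted p = 0.621). The next probe set of Spred1, 1423161_s_at, was lower in all 3 U0126 samples, with 46.2, 90.8 and 89.5 against 98.4, 223.9 and 248.4 in control (-1.15 ± 0.37, adjusted p = 0.197). The third, 1423162_s_at, had signals from 17.9 to 100.4 over all samples and a change of -0.71 ± 0.52, and the fourth, 1428777_at, had 5.9 to 152.3 and a change of 0.49 ± 0.56. With each of the 3 inhibitors 3 of the 4 were negative and 1428777_at was positive. Of the 4 Spred1 probe sets that were not tested, 1452911_at had signals from 20.1 to 195.1, 1445228_at from 2.1 to 57.0 and 1460116_s_at from 8.2 to 106.6. The last, 1443652_x_at, had 2.3 to 50.9 on the 430 2.0 arrays and 581.6 to 785.8 on the 430B arrays.

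Spred2 was steady on its brightest probe set only, and its dimmer ones varied more. Its brightest probe set, 1434403_at, had signals of 996.1, 997.5 and 1011.9 with U0126, 787.9, 1586.6 and 1177.9 with SP600125, 1010.1, 1420.8 and 1048.9 with SB203580, and 1144.1, 1441.9 and 1269.2 in control. The U0126 samples lay below the controls of their array type by small amounts, and the change was -0.35 ± 0.18 (adjusted p = 0.47, interval -0.74 to 0.04). With SP600125 it was -0.17 ± 0.18 and with SB203580 -0.16 ± 0.18. The 3 dimmer Spred2 probe sets did not share a sign with U0126, at -0.24 ± 0.30 for 1436892_at, 0.68 ± 0.34 for 1441415_at and -0.86 ± 0.56 for 1441802_at. The last Spred2 probe set, 1423001_at, had signals from 4.9 to 109.9 and was not tested.

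**Figure D2:**
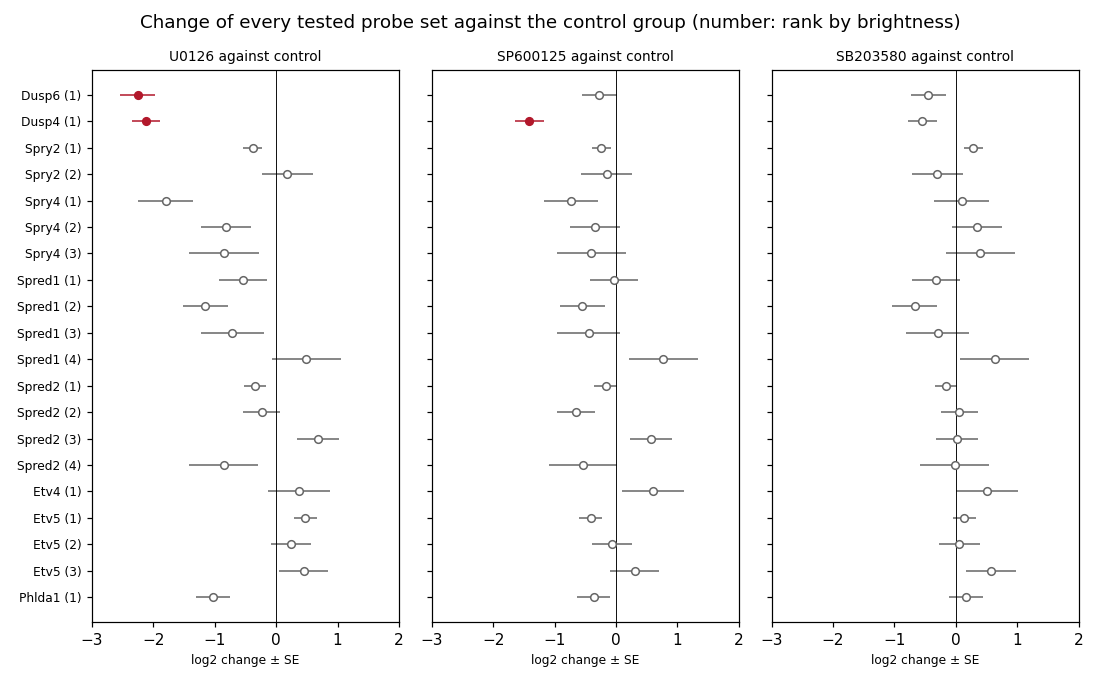
Log2 change ± SE of each of the 20 tested probe sets with U0126, SP600125 and SB203580 against control (n = 3 each), numbered within a gene by brightness; filled red points passed an adjusted p of 0.05. Dusp6 and Dusp4 passed with U0126 (-2.26 and -2.12), Dusp4 passed with SP600125 (-1.41), and no probe set passed with SB203580.

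The Etv genes had positive changes with U0126, none past the test. Etv5, measured best by probe set 1428142_at, had signals of 3983.8, 1028.8 and 1262.1 with U0126, 1723.8, 609.7 and 760.3 with SP600125, 2992.7, 736.7 and 1158.3 with SB203580, and 2793.0, 712.2 and 960.3 in control. All U0126 samples were above, and all but 1 of the SP600125 samples were below, the controls of their array type. Against control the change was 0.47 ± 0.19 with U0126 (adjusted p = 0.313, interval 0.08 to 0.87), -0.41 ± 0.19 with SP600125 (adjusted p = 0.558) and 0.14 ± 0.19 with SB203580 (adjusted p = 0.887). The other 2 Etv5 probe sets, 1420998_at with signals from 88.0 to 214.0 and 1450082_s_at with 60.9 to 161.9, were also positive with U0126, at 0.24 ± 0.33 and 0.44 ± 0.40, and did not pass.

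Between inhibitors Etv5 was higher with U0126 than with SP600125 by 1.85-fold (0.89 ± 0.19, adjusted p = 0.0153). This call was lost in 7 of 16 settings and omissions, among them median centring (0.70, adjusted p = 0.0557) and the omission of U0126 replicate 1 or 3 or of SP600125 replicate 1 or 2. The other 2 probe sets stood at 0.31 ± 0.33 and 0.14 ± 0.40 and did not pass.

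Etv4 was dim. Its tested probe set, 1423232_at, had signals of 25.5, 29.1 and 67.0 with U0126, 46.8, 35.5 and 60.2 with SP600125, 29.3, 65.5 and 39.3 with SB203580, and 20.3, 43.4 and 19.4 in control, close to the constant of 12.6 added before the log2. The mean of the 430 2.0 arrays, 44.9, lay just above the filter at 42.9. The changes of 0.37 to 0.61 against control had a standard error of 0.51 and groups overlapped, so no difference was detectable. The second Etv4 probe set, 1443381_at, had signals from 3.5 to 43.3 on the 430 2.0 arrays and 126.4 to 259.3 on the 430B arrays and was not tested.

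Phlda1 encodes a pleckstrin homology-like protein that growth factors induce. Its probe set, 1418835_at, had signals of 159.7, 217.3 and 133.3 with U0126, 224.2, 409.3 and 218.2 with SP600125, 339.5, 388.5 and 475.6 with SB203580, and 321.6, 386.3 and 355.0 in control. The U0126 samples were the lowest of each array type, and the SB203580 samples were all above the controls. The change with U0126 was -1.03 ± 0.27 against control (adjusted p = 0.12) and passed against SB203580 (-1.19 ± 0.27, 2.28-fold, adjusted p = 0.0384). That call was lost in 8 of 16 settings and omissions and kept its direction in all. U0126 against SP600125 stood at -0.67 ± 0.27 (adjusted p = 0.212).

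**Figure D3:**
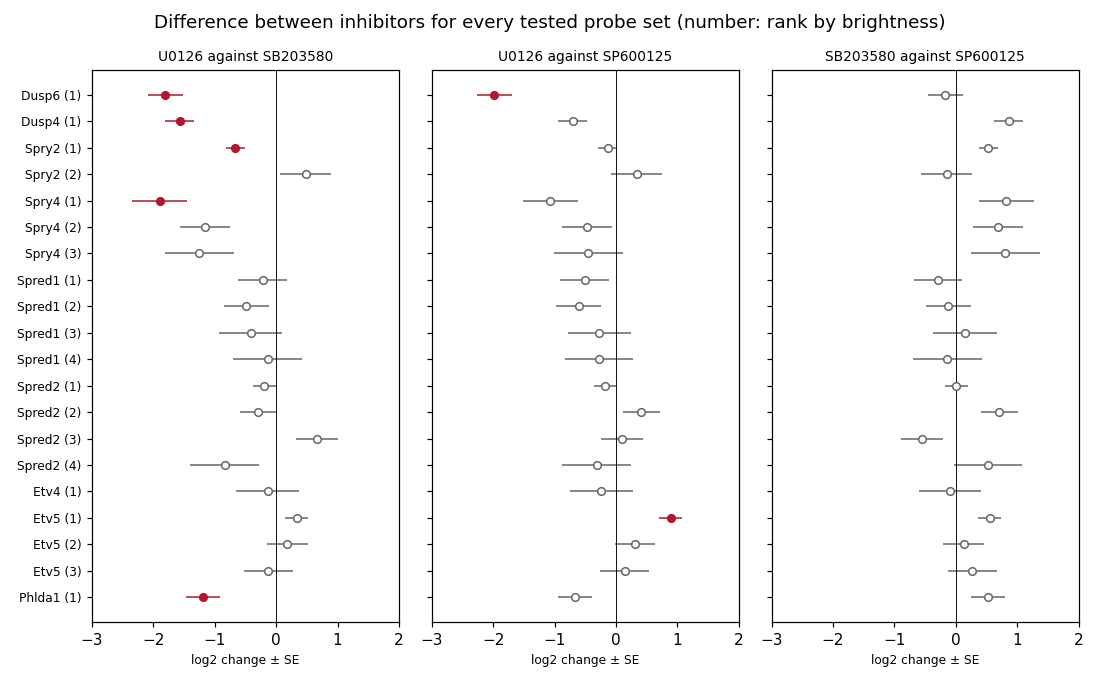
Log2 difference ± SE between inhibitors for the 20 tested probe sets (n = 3 each), numbered within a gene by brightness; filled red points passed an adjusted p of 0.05. U0126 was lower than SB203580 for Dusp6, Dusp4, Spry2 (1), Spry4 (1) and Phlda1, and against SP600125 it was lower for Dusp6 and higher for Etv5 (1).

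Counted over the comparisons, 2 of 20 tested member probe sets were called lower and 0 higher with U0126 against control, where 0.448 percent of all tested probe sets were called, 0.274 percent lower and 0.174 percent higher. With SP600125 1 of 20 was called lower, against a background of 0.592 percent in both directions, 0.326 percent lower and 0.266 percent higher. With SB203580 limma called 0 of 20, against 0.389 percent in both directions, 0.300 percent lower and 0.0888 percent higher, and 1 of 20 had an unadjusted p under 0.05, against 2528 of all 27022. For U0126 against SB203580, 5 of 20 were lower and 0 higher, where the background was 1.37 percent in both directions, 0.533 percent lower and 0.840 percent higher. For U0126 against SP600125, 1 was lower and 1 higher, with a background of 2.93 percent in both directions, 1.44 percent lower and 1.49 percent higher. For SB203580 against SP600125 limma called 0 of 20, where the background was 0.788 percent in both directions, 0.563 percent lower and 0.226 percent higher, and 4 of 20 had an unadjusted p under 0.05, against 2875 of all 27022. The comparisons share samples, so these counts are not independent of each other. The members were also chosen with earlier results of these data known. The counts here and below are therefore a description beside the background and not an independent test against it.

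With U0126 against control, 13 of 20 probe sets were negative with a median log2 change of -0.46, while 43.0 percent of all tested probe sets were negative with a median of 0.06. In 8 of the 20 the U0126 samples all lay below the controls of their array type, against 9.14 percent of all tested, and in 1 they lay above, against 14.0 percent. With SP600125 16 of 20 were negative, against 50.4 percent of all tested (median -0.31, against 0.00 over all tested). Of the 20, 4 lay wholly below the controls, against 11.5 percent of all tested, and 0 wholly above, against 11.0 percent. With SB203580 8 of 20 were negative, against 48.8 percent (median 0.06, against 0.01), 4 lay wholly below, against 11.9 percent, and 1 above, against 11.6 percent. The 20 probe sets belong to 9 genes and are not independent of each other. By the brightest probe set of each gene, 7 of 9 were negative with U0126, 8 of 9 with SP600125 and 4 of 9 with SB203580. No share over all genes was taken for these counts by gene.

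Between inhibitors the groups of the members were set apart as follows. With U0126 against SB203580, 9 of 20 lay wholly lower, against 9.85 percent of all tested, and 2 wholly higher, against 15.0 percent. With U0126 against SP600125, 5 lay wholly lower, against 11.4 percent, and 3 higher, against 16.9 percent. With SB203580 against SP600125, 2 lay wholly lower, against 12.7 percent, and 4 higher, against 13.5 percent.

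The higher medians of the U0126 arrays bear on these signs. Centring each array on its median moved the median change of all probe sets with U0126 against control to -0.13, and the split of all calls to 16 higher and 225 lower, where the deposited scaling gave 47 and 74. Against SP600125 that split was 135 higher and 900 lower, where the deposited scaling gave 402 and 389. Relative to the median of all probe sets, Dusp6 changed by -2.31 and Dusp4 by -2.18 with U0126, and Etv5 stood at 0.42. Centring moves every probe set of a comparison by the same amount, so these relative values are equal under both scalings by construction. That shift took the dim Spry2 probe set, at 0.18 with U0126 against control, to -0.01.

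**Figure D4:**
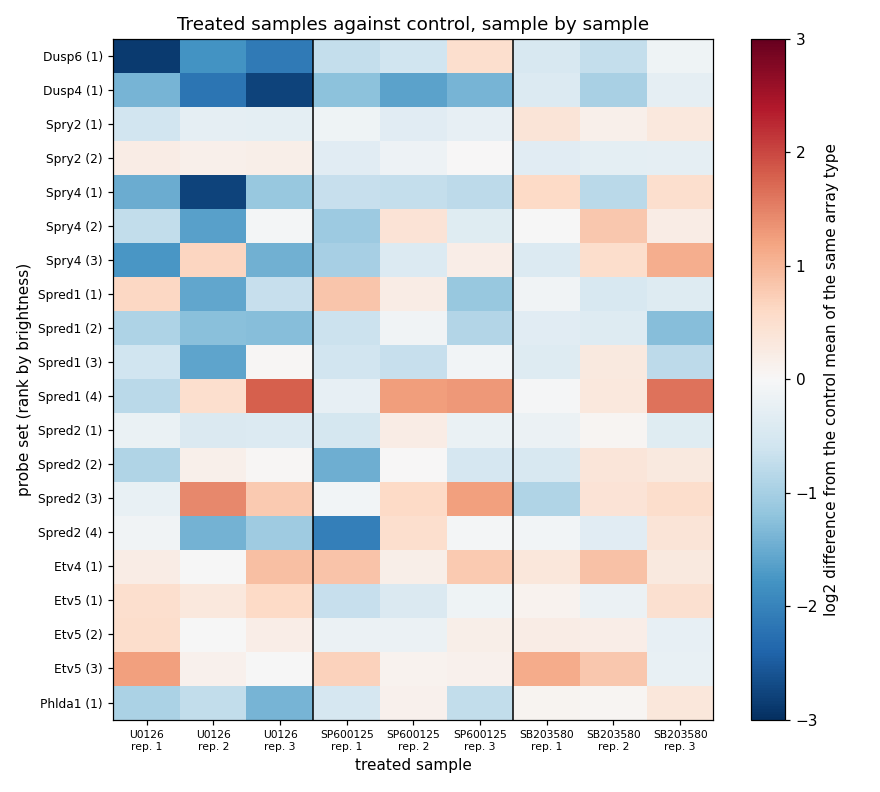
Log2 difference of each treated sample from the mean of the controls on the same array type, for the 20 tested probe sets (rows, numbered within a gene by brightness) and the 9 treated samples (columns); blue is below and red above control. Dusp6 and Dusp4 are blue in all 3 U0126 samples (-2.86 to -1.39), Dusp4 is also blue in all 3 SP600125 samples (-1.61 to -1.24), and dim probe sets such as Spred1 (4) change colour between replicates.

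Precision differed among members with their signal. The 7 tested probe sets with a mean signal of at least 300 on the 430 2.0 arrays had standard errors of 0.16 to 0.39, and the 13 dimmer ones 0.30 to 0.56. Replicates 2 and 3 of a group differed most for the third Spry4 probe set with U0126, by 2.08 on the log2 scale, and for Dusp6 the largest such difference was 1.10, with SP600125. Control replicates 2 and 3 differed by 0.16 for Dusp6 and 0.28 for Dusp4. The 8 probe sets that were not tested had mean signals of 7.5 to 41.3. Without the signal filter none of the 8 passed against control, with adjusted p-values of 0.513 and above.

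Other genes of the pathway were taken from 4 lists. Of 9 other MAP kinase phosphatase genes 8 were tested, and none was called with any inhibitor against control, where the medians were 0.14 with U0126, -0.51 with SP600125 and -0.18 with SB203580. Dusp9 (-0.77 ± 0.29), Dusp16 (-0.69 ± 0.31) and Dusp1, an immediate early phosphatase gene (-0.65 ± 0.24), were among 7 of 8 negative values with SP600125. Their replicate 1 differences, -1.59, -1.76 and -1.40, were larger than those of replicates 2 and 3, and came from the arrays with the highest actin ratio. The Gapdh ratio was not highest there, at 3.46 on the 430A array with SP600125 against 4.03 in control. The part of RNA quality in these values was not tested. Dusp16 was higher with U0126 than with SP600125 (1.36 ± 0.31, adjusted p = 0.0252).

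Of 10 other inhibitors and scaffolds of receptor signalling 8 were tested. Flrt3, a membrane protein gene of FGF signalling, fell with SP600125 on both tested probe sets (-1.44 ± 0.21, adjusted p = 0.00307, on the brighter), and none was called with U0126 or SB203580 against control. It was higher with U0126 than with SP600125 (0.82 ± 0.21, adjusted p = 0.0479). Spry1, a Sprouty gene outside the members, had signals of 347.0, 423.1 and 276.4 with U0126, against 760.5 on the 430A array and 536.2 and 410.2 on the 430 2.0 arrays in control (-0.66 ± 0.23, adjusted p = 0.257). The U0126 and control values overlapped on the 430 2.0 arrays.

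Of 16 further transcriptional outputs 13 were tested. Egr1, an immediate early transcription factor gene often induced by ERK, rose with SB203580 (1.86 ± 0.37, adjusted p = 0.0356) and stood at -0.15 ± 0.37 with U0126. Phlda2, a relative of Phlda1 and an imprinted growth regulator, rose with SP600125 (1.43 ± 0.23, adjusted p = 0.00636), while Phlda1 stood at -0.36 ± 0.27. Fos stood at -1.33 ± 0.46 with U0126 (adjusted p = 0.244). Between inhibitors, Ets2 (0.93 ± 0.17) and Phlda2 (1.46 ± 0.23) were higher and Egr1 (-2.01 ± 0.37) lower with U0126 than with SB203580, and Phlda2 was lower with SB203580 than with SP600125 (-2.05 ± 0.23). The medians of the list against control were -0.13 with U0126, 0.13 with SP600125 and -0.12 with SB203580.

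On the route from FGF to ERK, 16 of 22 listed genes were tested. Fgf4, the ligand of the inner cell mass, rose with U0126 (1.33 ± 0.20, adjusted p = 0.0055), and it was the 1 gene of this list called in any comparison with control. Its signals on the brightest probe set were 996.4, 1765.4 and 1843.3 with U0126 and 441.4, 692.9 and 643.1 in control. It was also higher with U0126 than with SB203580 (1.66 ± 0.20) and than with SP600125 (1.68 ± 0.20). The MEK genes Map2k1 (0.04 ± 0.12) and Map2k2 (0.16 ± 0.22) and the receptor gene Fgfr2 (-0.25 ± 0.15) did not pass. The median of the list with U0126 was 0.10, against 0.05 over all 12614 genes.

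**Figure D5:**
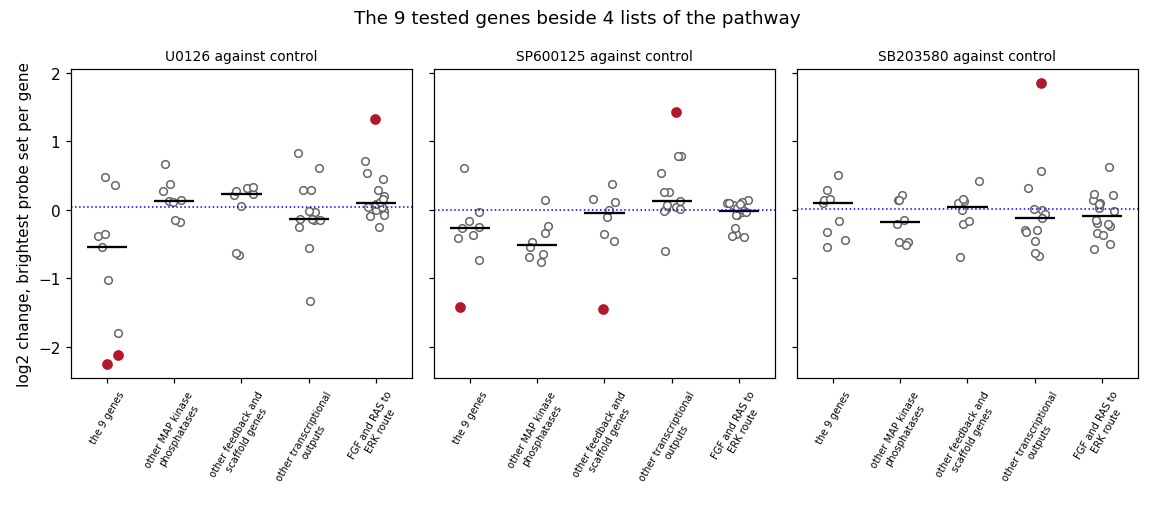
Log2 change against control of the brightest tested probe set per gene, for the 9 tested members and 4 lists of other pathway genes; points are genes, filled red where called, black bars are medians and the dotted line is the median of all genes. With U0126, Dusp6 and Dusp4 are the called members and Fgf4 the called gene of the FGF route; with SP600125, Dusp4, Flrt3 and Phlda2 are called, and with SB203580 Egr1.

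The profile of Dusp6 over the 9 treated samples was compared with that of every other tested gene by the mean absolute difference of their log2 differences from control. The 5 nearest of 12613 genes were Tspan1, a tetraspanin gene (0.36), Ccn1, a gene of a secreted matrix protein (0.46), Ccne2, a G1 cyclin gene (0.57), Gm26760 (0.58) and Nrg4, an epidermal growth factor family ligand (0.59), where the median over all genes was 1.16. Tspan1 had signals of 146.3, 380.2 and 447.2 with U0126 and 979.2, 1430.5 and 1250.2 in control, and fell (-1.99 ± 0.21, adjusted p = 0.00048). Ccn1 fell too (-1.46 ± 0.24, adjusted p = 0.01), and the other 3 did not pass with U0126. Among the members, Dusp4 ranked 43 (0.71), Spry4 55 (0.73), Phlda1 329 (0.85), Spred2 1377 (0.97), Spry2 2959 (1.04), Spred1 4884 (1.11), Etv5 7245 (1.19) and Etv4 11418 (1.48). All profiles share the same 9 arrays and controls, so closeness is a description of these samples.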

How the data were processed

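Per the labels, total RNA of 12 samples was read on 16 Affymetrix arrays. Each deposited table gives a linear signal intensity per probe set, which the authors had scaled to a trimmed mean of 500, as the values of every array show. The sources used here do not name the software or its background correction. The 430A and 430B arrays of replicate 1 were joined by label. A constant of 12.6 (the 20th percentile of the 430 2.0 values) was added and log2 taken; fold changes are on this scale. Probe sets with a 430 2.0 mean at or above the 40th percentile were tested. This mean covers all groups, so a member high in 1 group could pass through that group.

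The comparisons used limma 3.58.1 in R 4.3.3 with array type as a fixed block, an intensity trend, 7 residual degrees of freedom, and Benjamini-Hochberg adjustment over all probe sets tested, called under 0.05, two-sided. The fitting was tested on simulated data drawn with the variances of this same fit, so that test cannot check the variance model. By rule, every member probe set is named, the brightest standing for its gene, and of each other list up to 4 genes called per comparison, by moderated t; for lineage markers this was done against control only. Genes named without a call were added after their values were seen. Members and lists were chosen with earlier results of these data known. Alternatives covered the constant, filter, scaling, block, array set, variance model and each omitted sample. Replicate numbers were not used to pair samples in the reported fit. Deviations of same-numbered samples correlated weakly, by 0.02 to 0.09, and all these correlations were positive. Samples of the small sample labelling assay were not in this check. It therefore cannot exclude that same-numbered samples were paired. The number of arrays limits precision.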

Additional observations from a re-analysis of the deposited data

How the results depend on the processing

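Without the intensity trend, limma called 0 members for U0126 against control, 0 for SP600125 against control and 0 for U0126 against SB203580, where the fit reported called 2, 1 and 5, and 1 for U0126 against SP600125, where it called 2. U0126 against SB203580 called 2 members without the signal filter and 2 on the 430 2.0 arrays alone, and U0126 against SP600125 called 1 with median centring and 1 on the 430 2.0 arrays alone. Those arrays are fewer samples. Leaving out 1 sample at a time, members called were 2 to 2 for U0126, 0 to 1 for SP600125 and 0 to 0 for SB203580 against control, 2 to 3 for U0126 against SB203580, 1 to 2 for U0126 against SP600125 and 0 to 0 for SB203580 against SP600125. With the replicate number as a block, the counts were 2, 1, 0, 5, 2 and 0 in that order, as without it. Of 1896 member values under an alternative or omission, 38 lost a call, 2 gained one, 0 reversed, and 81 changed sign without passing in either fit. Over all probe sets, the counts without the trend, on the 430 2.0 arrays alone and as reported were 2, 56 and 121 for U0126, 8, 82 and 160 for SP600125 and 1, 35 and 105 for SB203580 against control, 36, 197 and 371 for U0126 against SB203580, 130, 345 and 791 for U0126 against SP600125, and 23, 116 and 213 for SB203580 against SP600125. Median centring called 241 for U0126 and 101 for SP600125 against control. Causes were not tested. Dim probe sets limit what can be seen for Dusp5, Etv4 and most of Spred1.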
